A study of Mus musculus with 6 samples.

Results

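The transcripts described here are the 7185 whose GENCODE M21 type is nonsense_mediated_decay, chosen by matching the identifiers in the deposited transcript tables, without their version, to the annotation. They made up 7185 of 116622 matched transcripts and belonged to 4576 of 35865 genes. For each gene, the NMD share is the percentage of the gene's TPM that these transcripts held. TPM, the unit of the deposited tables, is a transcript's level corrected for its length and scaled to the same total in every mouse. The total NMD share is the same percentage over all matched transcripts of a mouse.

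Hippocampus was taken from female B6J mice at 2 weeks of age, 3 wild type (WT) and 3 Prmt9 knockout (KO), and polyadenylated RNA was sequenced as paired ends. The Prmt9 KO carries a germline deletion, made with CMV-driven Cre, of exon 5 of Prmt9 in the whole body, so that cells other than neurons carry it too. PRMT9 is an arginine methyltransferase whose known substrate is the U2 snRNP splicing factor SF3B2. The study's WT mice were littermate controls, but no source used here says which mice shared a litter or that a mouse number marks one.

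Nonsense-mediated decay is a translation-coupled pathway that degrades mRNAs whose stop codon lies well upstream of an exon junction. The exon junction complex left by splicing marks that junction. UPF1 is recruited to the terminating ribosome, SMG1 phosphorylates it, and SMG5 and SMG6 help to bring about decay of the RNA. Many genes of splicing factors include so-called poison exons or skip exons in ways that create such transcripts, and by this route limit their own expression. In tissues other than brain, the same coupling keeps the synaptic scaffold PSD-95 low. An annotated NMD transcript is a prediction from its structure. Its level in polyadenylated RNA is what remains after any decay.

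What the members share is visible at their stop codons. The last 27 coding bases are printed in lower case and the annotated stop codon in capitals, 5′ to 3′ on the coding strand, from the GENCODE M21 transcript sequences (build GRCm38). They are shown for the most abundant member of selected genes with high NMD levels in 3 lists, splicing regulators, core spliceosome and synapse, and for Ufsp2, the gene with the smallest p, which was added after its values were seen.
Hnrnpa1-204: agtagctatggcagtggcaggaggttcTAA
Rbm39-223: ctccttggaaagctctccatctccttgTGA
Ddx5-208: accgatgtggcctccagagggctaggtTAG
Luc7l2-204: ggatcttggagaatgcttgaaagtccaTGA
Dnm1-206: cgtgccctccaggccgggggcttccccTGA
Ufsp2-204: tgtaagaacgtagtgcgcttcattcagTGA
The routes to these stop codons differed. In Hnrnpa1-204 (chr15:103240467-103246692, plus strand), the stop codon was that of the main coding transcript, and the last exon junction lay 1801 bases after it. Hnrnpa1 encodes the splicing repressor hnRNP A1. In Rbm39-223 (minus strand), from the gene of a U2AF-related splicing factor, a cassette exon of 72 bases at chr2:156174097-156174168 supplied the stop codon, 1420 bases before the last junction. In Ddx5-208 (minus strand), from the gene of an RNA helicase of the spliceosome, the intron of 1265 bases at chr11:106782694-106783958 was kept and held the stop codon. Luc7l2-204 (chr6:38557641-38608939, plus strand), from a gene for a U1 snRNP-associated protein, ended 780 bases before its last junction. Dnm1-206 (minus strand), from the gene of the vesicle-fission GTPase dynamin 1, used a donor displaced by 26 bases at chr2:32312684-32312709. In Ufsp2-204 (plus strand), the intron of 80 bases at chr8:45980493-45980572 was kept and its sequence supplied the stop codon. Ufsp2 encodes the protease that releases the ubiquitin-like modifier UFM1.

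Over the whole class, 7150 members, or 99.5%, had their stop codon at least 50 bases before the last exon junction. The type that defines the members is a prediction from such structure, so this percentage describes the choice and is not a finding. The median distance was 334 bases, with quartiles of 160 and 742, and 1745 members had a single junction after the stop codon. TGA was the stop codon of 4150 members, TAA of 1608 and TAG of 1411. The median member was 1255 bases long, against 1820 for protein-coding transcripts. The coding start was annotated as incomplete for 2074 members, and 145 were readthrough transcripts that span neighbouring genes. For 507 members, or 7.06%, the stop codon was also that of a protein-coding transcript of the same gene, and these held 9.81% of the members' TPM.

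Each member was set against its gene's most abundant protein-coding transcript (by mean TPM), and the first difference in splicing between the coding start and the stop codon was recorded. Skipping of at least 1 exon came first in 1719 members, of which 1440 left out a single exon. The skipped bases were a multiple of 3 in 5.93% of the 1719, so nearly all skips shifted the reading frame. A type chosen for early stop codons favours such skips. Inclusion of an exon came first in 1567 members, and there the stop codon lay outside the exons of the coding transcript in 81.9%, compared with 3.03% for skipping. With inclusion the stop codon thus lay mostly in added sequence, while skips mostly ended at stop codons within exons of the coding transcript. Alternative acceptors came first in 1276 members and alternative donors in 627. Retention of a whole intron came first in 104 members, whose stop codon lay outside the coding transcript's exons in 88.5%. In 360 members the stop codon was the same and an intron followed it.

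The weight of these classes changed when they were counted by TPM. Alternative donors were 8.73% of the members and held 18.2% of their TPM, among them Ppia-201 and Gpi1-207, described below. Exon skipping held 19.1%, exon inclusion 17.5% and alternative acceptors 16.0%.

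**Figure D1:**
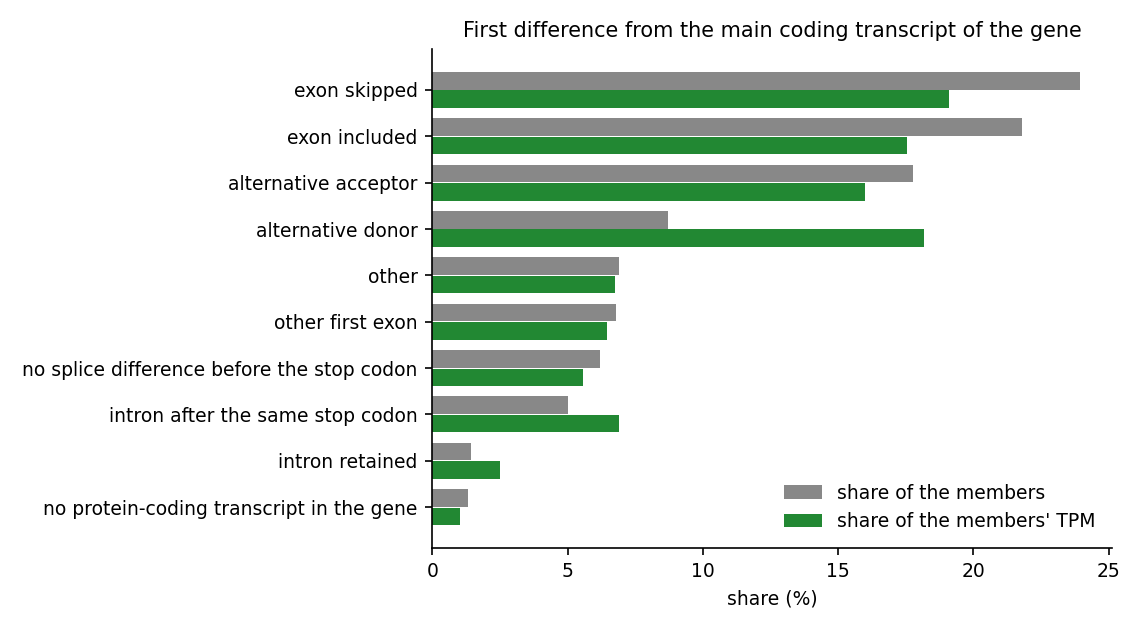
Share of the 7185 members (grey) and of their summed mean TPM over 6 mice (green), in percent, by the first difference from the gene's most abundant protein-coding transcript. Exon skipping was the most frequent class by number (23.9%), and alternative donors had a larger share by TPM (18.2%) than by number (8.73%). Classes of fewer than 50 members are left out.

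The libraries held between 194098391 and 286771677 estimated counts. The mice numbered 1 stood apart in both groups. On the first principal component of gene expression, which took 80% of the variance, the values were -59.39 in WT1 and -34.07 in KO1 against 20.01 to 25.83 in the other 4 mice. In WT1 2610 members, or 36.3%, were at 0, compared with 1270 to 1423 in the others. The summed TPM of 7 oligodendrocyte markers was 2007 in WT1 and 1093 in KO1, against 7221 to 10339 in the others. The sum of 8 excitatory neuron markers was 2553 and 3047, against 4465 to 4822. For 6 choroid plexus and ependyma markers, the sum was 7277 in WT1 and ranged from 614 to 3344 in the others. No marker of the 7 lists was at 0 in any mouse, and none of the 7 marker sums separated WT from KO. Fewer cells of a type and less RNA per cell cannot be told apart in these bulk samples. What these differences contribute to the shares below was not tested, and results that rest on the mice numbered 1 are also given without them.

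Prmt9 itself was lower in every KO mouse. Its gene TPM was 11.8, 15.2 and 15.0 in WT and 3.93, 4.61 and 4.67 in KO, a log2 fold change of -1.71 ± 0.10 (SE) with an adjusted p of 0.0327 by edgeR's quasi-likelihood test. These values cover whole transcripts and do not measure exon 5 alone. The adjusted p did not reach the level under 0.01 required for a call below. In the edgeR fit of single transcripts, the main coding transcript Prmt9-201 was not called either. Its TPM was 10.8, 11.3 and 11.7 in WT and 3.68, 3.39 and 4.32 in KO, a log2 fold change of -1.65. Prmt9 has 1 annotated NMD transcript, Prmt9-205, in which an acceptor 35 bases inside exon 5 is used (chr8:77562414-77562448). Its TPM was 0, 1.17 and 0.758 in WT and 0.0197, 0.635 and 3.28904e-05 in KO, so the groups overlapped as estimated. This acceptor lies in the deleted exon, so the KO values do not measure its use. Which reads they were estimated from was not tested.

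The question of the comparison was whether loss of this arginine methyltransferase of a splicing factor was accompanied by a different output of NMD transcripts. The total NMD share was 2.35%, 2.41% and 2.44% in the 3 WT mice and 2.56%, 2.43% and 2.47% in the 3 KO mice. The means were 2.40% ± 0.044 and 2.49% ± 0.065 (SD, n = 3 each), and the groups overlapped. The difference of 0.0842 percentage points gave p = 0.2 in an exact two-sided permutation test, for which 0.1 is the smallest p that 3 against 3 mice allow. Without KO1 it was 0.0479 points, and without both mice numbered 1 it was 0.0234 points.

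With the following denominators the groups separated. Among transcripts of genes with a member only, the share was 10.3%, 10.2% and 10.3% in WT and 10.9%, 10.4% and 10.5% in KO. Without mitochondrially encoded genes, it was 2.54%, 2.71% and 2.75% in WT and 2.82%, 2.76% and 2.79% in KO. In both, every KO mouse lay above every WT mouse, also when the mice numbered 1 are set aside, with the smallest possible p of 0.1 in the exact permutation test. The other annotated types gave a reference for this spread. Retained-intron transcripts held 5.71%, 7.56% and 7.67% in WT and 6.45%, 7.31% and 7.69% in KO (exact permutation p = 0.8). Their share was lowest in both mice numbered 1, which was not so for the NMD share.

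**Figure D2:**
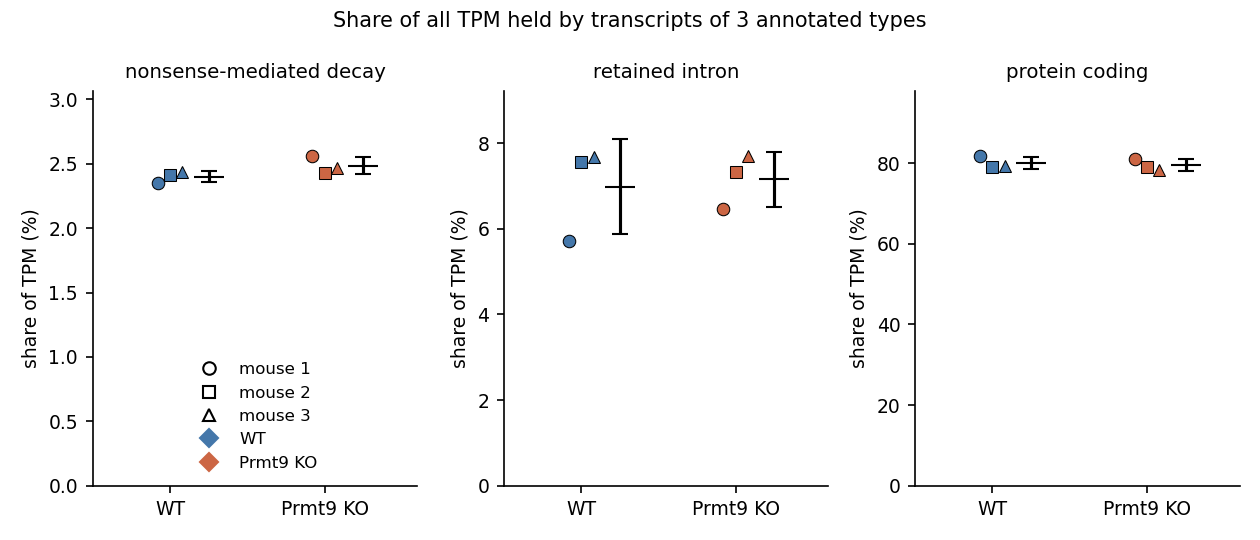
Share of all TPM, in percent, held by NMD, retained-intron and protein-coding transcripts in each WT (blue) and Prmt9 KO (orange) mouse, with marker shape for the mouse number and black bars for mean and SD (n = 3). The NMD share lay between 2.35% and 2.56% in all 6 mice, and WT and KO overlapped in all 3 panels.

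By structural class, exon-skipping members were the only ones of the main classes in which the groups did not overlap. They held 0.424%, 0.46% and 0.468% of all TPM in WT and 0.491%, 0.476% and 0.478% in KO. The groups were also separate among the mice numbered 2 and 3. The difference was 0.0310 points (exact permutation p = 0.1, the smallest possible, before any correction for the 12 classes). Exon-inclusion members held 0.353%, 0.444% and 0.450% in WT and 0.425%, 0.447% and 0.451% in KO, and retained-intron members of the class 0.0438%, 0.0664% and 0.0682% against 0.0555%, 0.0653% and 0.0701%. Both overlapped.

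A small number of members carried much of the signal. The median mean TPM of a member was 0.502, 576 members were at 0 in all 6 mice, and 1856 reached 1 TPM in every mouse. The 10 highest held 18.4% of the members' TPM, and 202 members held 50% of it. The highest, Ppia-201, differs by an alternative donor displaced by 5 bases in the gene of cyclophilin A, a peptidyl-prolyl isomerase. Its TPM was 2769, 1129 and 1219 in WT and 2669, 1373 and 1322 in KO. The mice numbered 1 were high in both groups, and the groups overlapped. Rpsa-206, from the gene of a small-subunit ribosomal protein, had 1275, 438 and 433 TPM in WT and 893, 441 and 449 TPM in KO, the same pattern.

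Mobp-204 showed the reverse. Mobp encodes a myelin protein of oligodendrocytes, and its TPM was 61.2, 846 and 744 in WT and 32.8, 519 and 730 in KO, lowest in both mice numbered 1, as were the oligodendrocyte markers. As a share of its gene, Mobp-204 held 52.8% and 52.3% in the mice numbered 1 and 64.3% to 66.7% in the others. Others among the 10 were Gpi1-207 (glucose-6-phosphate isomerase), Ddx5-208, Eef1b2-205 (a translation elongation factor), Atp2a2-203 (the calcium pump SERCA2) and Lars2-209 (mitochondrial leucyl-tRNA synthetase). Ddx5-208 had 108, 234 and 237 TPM in WT and 140, 223 and 240 TPM in KO. Atp2a2-203 ends at the stop codon of the protein-coding transcript Atp2a2-201 and has an added intron after it. All 10 overlapped between WT and KO. Ppia, Rpsa and Eef1b2 have processed pseudogene copies, and reads shared among copies or among transcripts of a gene were divided by estimation, an uncertainty that no test here includes.

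The NMD share per gene could be tested in 3035 genes, which contain 5250 members and have a gene TPM of at least 1 in every mouse. Of the other genes with a member, 76 have NMD transcripts only. The median of the mean share was 9.70%, with quartiles of 4.04% and 21.5%. In 937 genes the share was under 5%, in 1276 it was 5 to 20%, in 666 it was 20 to 50%, and in 156 genes NMD transcripts held 50% or more of the TPM. The median by mouse was 8.12% in WT1 and 9.07% in KO1, and 9.95% to 10.1% in the other 4, so the mice numbered 1 differed more from the rest than WT from KO.

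No gene's NMD share passed the limma test on log2 ratios, which required a difference of at least 5 points and an adjusted p no higher than 0.01 (0.0% of 3035 genes). At an unadjusted p under 0.05 there were 91 genes, or 3.0%, compared with 1.87% of 7065 genes for the share of retained-intron transcripts. Likewise no member passed as a share of its gene (limma, 4160 members tested, with 0.0% of 59567 transcripts called), and 129 members, or 3.1%, had an unadjusted p under 0.05 against 2.65% of all transcripts. By abundance, edgeR called none of 5147 members and 0.0% of 75661 transcripts when a fold above 1.5 was required together with an adjusted p under 0.01. The main coding transcript of the deleted Prmt9 was not called either, so a lack of calls does not show a lack of change. An unadjusted p under 0.05 was reached by 107 members, or 2.08%, against 1.61% of all transcripts. Without both mice numbered 1, these shares were 8.87% of members against 8.28% of all transcripts for the share of the gene, and 10.3% against 9.72% for abundance, still with no member called. With a term for the mice numbered 1, they were 7.5% against 7.19% for the share of the gene and 6.88% against 6.2% for abundance. With mice paired by number, they were 4.4% against 4.35% and 3.54% against 3.51%.

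The direction of the differences was described by counts. All 3 KO values lay above all 3 WT values in 182 genes, or 6.0%, and below them in 124 genes, or 4.09%. For single members, the share was above in 246 of 4160, or 5.91%, and below in 176, or 4.23%, compared with 4.86% and 4.24% of all 59567 transcripts. The groups did not overlap in 10.1% of the members and in 9.1% of all transcripts. The per-gene share of retained-intron transcripts lay above in 4.59% and below in 3.34% of 7065 genes. Without both mice numbered 1, members were above in 21.5% and below in 19.0%, against 20.5% and 20.5% of all transcripts. The difference between members and all transcripts was not tested. The median difference in share was 0.135 points for members and 0.0414 points for all transcripts. On the log2 scale of abundance, the median fold change was 0.06 for members and 0.01 for all transcripts. Differences of at least 5 points were found in 283 genes, 168 higher and 115 lower in KO, and in 58 and 32 of these the groups did not overlap. As shares of the tested genes, 5.54% were higher and 3.79% lower by that much, compared with 4.78% and 3.3% for the retained-intron share per gene. With groups that did not overlap, the shares were 1.91% and 1.05%, compared with 1.37% and 0.906%.

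**Figure D3:**
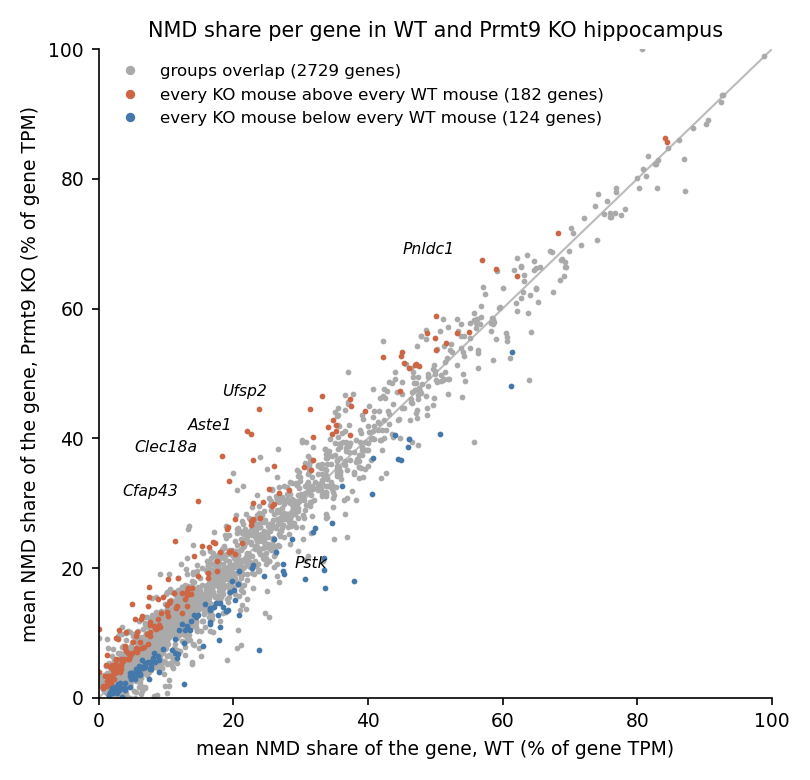
Mean NMD share of each of the 3035 tested genes, in percent of the gene's TPM, in WT (x axis) and Prmt9 KO (y axis) hippocampus, n = 3 mice each. Most genes lay along the grey line of equal shares. In 182 genes every KO mouse was above every WT mouse (orange) and in 124 every KO mouse was below (blue), and none passed the test. Names mark the genes with a difference of at least 8 points among the 10 with the smallest p.

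Ufsp2 stood first among these genes. Its NMD share was 24.5%, 24.0% and 23.1% in WT and 44.5%, 43.9% and 45.3% in KO. Every KO mouse lay far above every WT mouse, and the mice of each group lay close together. The difference was 20.7 points (exact permutation p = 0.1, the smallest possible), and the limma log2 ratio was 1.35 ± 0.14 (SE) with an unadjusted p of 4.2e-05 and an adjusted p of 0.128. It was among the genes that the study examined by RT-PCR, so it is not an independent choice. The intron-retaining Ufsp2-204 shown above carried most of the NMD TPM, with 14, 7.18 and 6.69 TPM in WT and 26.3, 17.7 and 18.7 TPM in KO. Ufsp2-208, which uses a donor displaced by 25 bases at the start of the same intron, had 3.41, 2.84 and 3.15 TPM in WT and 4.37, 3.77 and 2.75 TPM in KO, with overlap. The TPM of the whole gene was 56.1 ± 14.5 in WT and 56.7 ± 11.5 in KO (SD, n = 3 each).

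Of the other 9 genes with the smallest p, 6 were higher and 3 lower in KO, each with an adjusted p of 0.996 by limma. Aste1 had a share of 24.6%, 17.9% and 25.4% in WT and 36.9%, 41.0% and 44.0% in KO. Most of its NMD TPM came from Aste1-208, which includes a 59-base exon at chr9:105402718-105402776 and had 1.5, 1.07 and 1.85 TPM in WT and 2.62, 2.55 and 2.92 TPM in KO. Clec18a, a C-type lectin, had 14.9%, 20.5% and 19.7% in WT and 44.6%, 34.6% and 32.8% in KO at a gene level of about 4 TPM. Cfap43, a protein of motile cilia, had 11.6%, 10.2% and 22.2% in WT and 30.1%, 30.2% and 31.0% in KO. The gene level of Cfap43 was 1.81 to 3.07 TPM. In these 3 genes the groups were separate. The spread was widest in KO for Clec18a (SD 6.36, against 3.03 in WT) and in WT for Cfap43 (SD 6.57, against 0.484 in KO).

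Pnldc1, the exonuclease that trims piRNAs, was at 55.2%, 58.3% and 57.3% in WT and at 65.8%, 67.8% and 69.0% in KO. Its gene level was 2.48 to 5.81 TPM. In WT1, 54.0% of the gene was Pnldc1-205, which held 21.5% to 29.2% in the other mice. Pnldc1-203 and Pnldc1-204 were at 0 in WT1, so similar WT shares came from different transcripts. Stoml1, a stomatin-like membrane protein, was at 8.15%, 11% and 9.5% in WT and at 15.1%, 16.4% and 15.0% in KO. Cdc14b, a protein phosphatase, was at 0%, 3.40% and 5.34% in WT and at 9.07%, 8.18% and 10.1% in KO. Its NMD TPM was low and overlapped, at 0, 0.185 and 0.327 in WT and 0.248, 0.513 and 0.735 in KO. The limma log2 ratio for Cdc14b was 1.08 with 0.1 TPM added to each level, 2.21 with 0.01 and 0.39 with 0.5. The 3 genes lower in KO were Faf2, Pstk and Fggy. Faf2, which acts in degradation of proteins of the endoplasmic reticulum, was at 11.9%, 12.2% and 11% in WT and at 5.91%, 5.75% and 6.88% in KO, mainly through Faf2-208, in which a 139-base exon at chr13:54648292-54648430 is skipped. Pstk, a kinase in selenocysteine synthesis, was at 30.9%, 25.5% and 26.1% in WT and at 18.5%, 18.4% and 20.3% in KO. Fggy, a carbohydrate kinase, was at 17%, 20.03% and 17.2% in WT and at 9.13%, 12.9% and 10.9% in KO. In WT1, 10.6% of the gene was Fggy-206, which was at 0 in all other mice. The main member, Fggy-209, overlapped, at 6.35%, 19.8% and 15.8% in WT and 8.15%, 11.3% and 10.5% in KO. The separation in Fggy thus rests on a transcript seen in 1 mouse. These genes were selected by their p and not for a shared function.

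**Figure D4:**
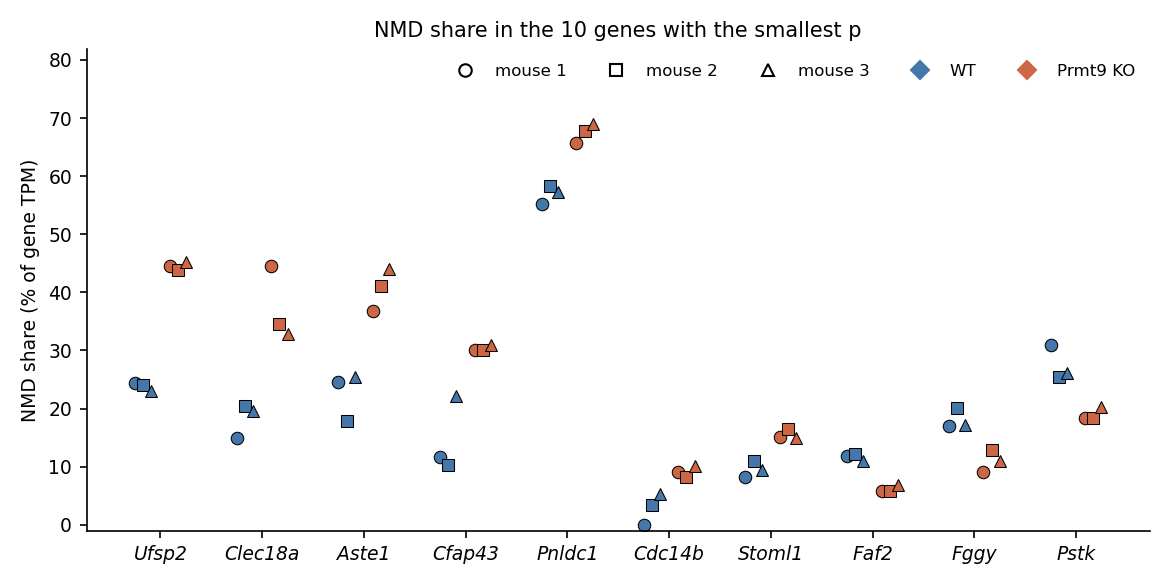
NMD share, in percent of the gene's TPM, in each mouse for the 10 genes with the smallest p among those with a difference of at least 5 points, WT in blue and Prmt9 KO in orange, with marker shape for the mouse number. In all 10 genes the groups were separate, as the choice by p favours. The difference in Ufsp2 was 20.7 points.

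Genes of splicing regulators had high NMD shares. The list held SR proteins and hnRNPs and also other RNA-binding proteins and kinases that act on splice-site choice, among them the CLK, RBFOX, NOVA, MBNL, CELF and ELAVL families. Of 63 listed genes 40 have a member, and in the 37 tested the median share was 17.5%, compared with 9.70% over all tested genes. The share in KO lay above WT in 4 of the 37 and below in 0, beside 6.0% and 4.09% of all 3035 genes, and no gene passed the test (limma, 1 gene at an unadjusted p under 0.05). The median difference was 0.736 points, against 0.191 over all 3035 genes. At the gene level, edgeR called none of the 63 and none of all 20315 genes tested. An unadjusted p under 0.05 was reached by 0 of the 63, beside 252 of the 20315. The log2 fold changes of the 63 ran from -0.25 to 0.16.

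The poison exons known in SR protein and TRA2 genes were measured in both groups. Srsf6-201 includes a 268-base exon at chr2:162932815-162933082 and had 27.8, 44.2 and 49.0 TPM in WT and 36.8, 38.6 and 37.6 TPM in KO, or 38.1%, 37.9% and 42.8% of Srsf6 against 42.0%, 39.3% and 37.2%. In Srsf3, the member Srsf3-201 includes a 456-base exon at chr17:29039454-29039909 and had 12.4, 17.2 and 15.4 TPM in WT and 21.8, 18.6 and 17.1 TPM in KO. In Srsf7, the member Srsf7-203, with a 460-base exon, was lower, at 3.29 to 5.50 TPM in WT and 3.46 to 6.0 TPM in KO. In Tra2a, the member Tra2a-202, with a 306-base exon, had 11.5, 21.5 and 18.2 TPM in WT and 9.54, 17.8 and 16.3 TPM in KO. In all 4 the groups overlapped.

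The 4 genes whose KO shares lay above all WT shares were Ptbp2, Syncrip, Srsf4 and Srrm2. Ptbp2 encodes the neuronal polypyrimidine tract-binding protein, and its members Ptbp2-206 and Ptbp2-208 skip a 34-base exon at chr3:119724612-119724645. They held 38.6%, 37.5% and 35.8% of the gene in WT and 42.7%, 40.3% and 38.7% in KO. The highest WT mouse and the lowest KO mouse were almost equal. Syncrip, an hnRNP of neuronal mRNA granules, had 26.7%, 37.3% and 38.4% in WT and 43.1%, 40.5% and 41.8% in KO. Srsf4 had 13.2%, 13.5% and 14.9% in WT and 16.7%, 17.2% and 17.1% in KO. Srrm2, a scaffold of nuclear speckles, had 5.91%, 7.14% and 7.26% in WT and 7.74%, 7.65% and 7.97% in KO. All adjusted p were 0.996 by limma.

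Clk1, a kinase of SR proteins, was the gene of the list with an unadjusted p under 0.05 (0.0305, adjusted 0.996 by limma), and it had the largest difference there, 11.2 points. Its share was 26.6%, 16.1% and 21.5% in WT and 37.4%, 33.9% and 26.6% in KO. The lowest KO mouse lay just below the highest WT mouse. The share came mainly from Clk1-210, which skips a 91-base exon at chr1:58420121-58420211 and had 22.9, 22.3 and 29.8 TPM in WT and 35.1, 41.1 and 35.1 TPM in KO. The other named genes of the list, Hnrnpa1, Rbm39, Hnrnpu and Tardbp, overlapped. Hnrnpa1 had 26.7%, 38.4% and 40.0% in WT and 30.4%, 42.5% and 45.2% in KO. Within mice of the same number, its share was higher in KO by 3.66, 4.13 and 5.19 points, with an adjusted p of 0.783 by limma with mice paired by number. Without pairing, the unadjusted p was 0.455 by limma. The mouse numbers are not known to mark pairs. Rbm39 had 8 members that together held 31.4%, 35.8% and 38.1% in WT and 37.8%, 37.3% and 37.4% in KO. Tardbp, which encodes TDP-43, had 10 members at 30.3% to 33.1% in WT and 31.4% to 33.7% in KO.

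**Figure D5:**
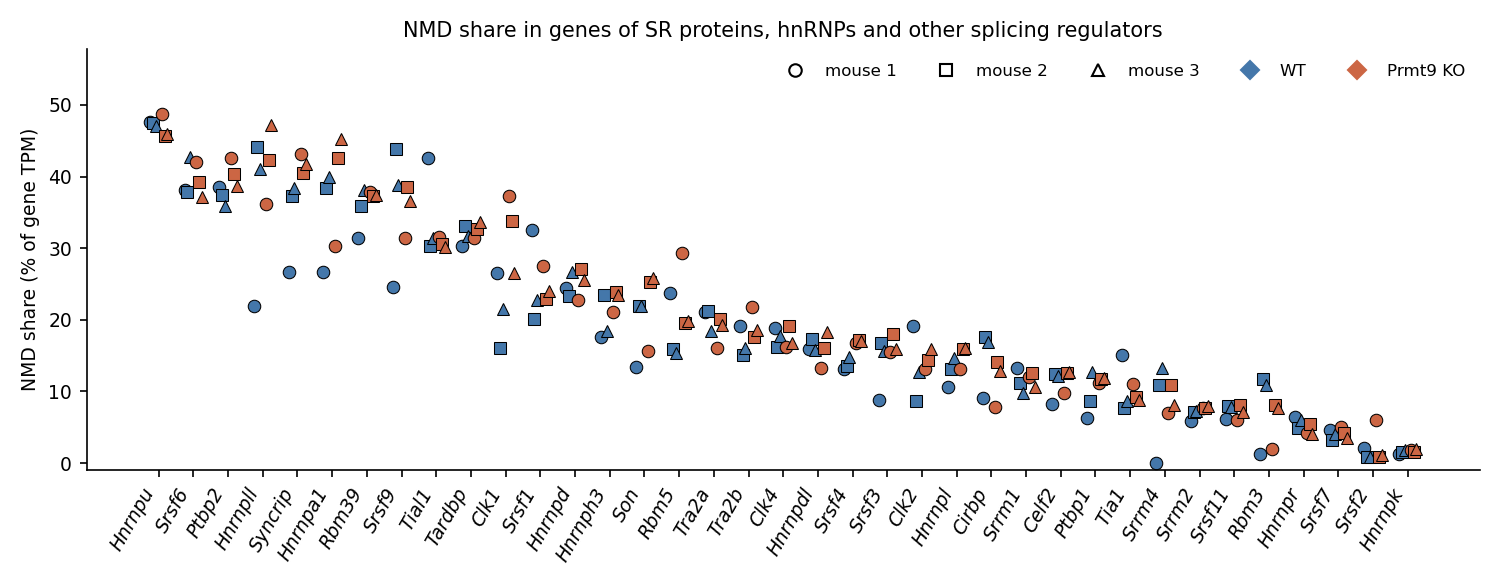
NMD share, in percent of the gene's TPM, in each mouse for the 37 tested genes of SR proteins, hnRNPs and other splicing regulators, ordered by mean share, WT in blue and Prmt9 KO in orange, with marker shape for the mouse number. The shares ran from 47.1% in Hnrnpu to under 2% in Hnrnpk, and the differences between genes were far larger than those between WT and KO. In 4 genes (Ptbp2, Syncrip, Srsf4, Srrm2) every KO mouse was above every WT mouse, and none passed the test.

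In the core spliceosome, the machinery that holds the PRMT9 substrate SF3B2, NMD shares were lower. Of 61 listed genes 26 have a member, and the 25 tested had a median share of 5.74%. KO was above WT in 0 and below WT in 1, beside 6.0% and 4.09% of all 3035 genes, and the limma fit found 0 genes at an unadjusted p under 0.05 and none called. The gene below was Sf1, the branch-point binding protein, with 16.6%, 16.4% and 16.7% in WT and 14.5%, 13.2% and 13.2% in KO (adjusted p = 0.996 by limma). Both of its members, Sf1-201 and Sf1-211, skip a 76-base exon at chr19:6368364-6368439. Luc7l2 had 13.7%, 16.8% and 17.9% in WT and 17.8%, 20.04% and 20.5% in KO, and Prpf38b, a pre-mRNA processing factor, had 27.8%, 26.9% and 30.6% against 34.4%, 29.7% and 30.2%. In both, a single mouse made the groups overlap. Sf3b2 is not among the genes with a member. Its gene level was 127, 156 and 160 TPM in WT and 120, 131 and 134 TPM in KO. WT1 lay within the KO range and the other WT mice above it. With a log2 fold change of -0.28, it was the 1 gene of the 61 with an unadjusted p under 0.05 at the gene level (0.0167, adjusted p = 1.0 by edgeR), and none of the 61 was called. Over all genes, 252 of 20315 were under 0.05 and none was called.

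The factors of the decay pathway were examined as a gene list of their own. Among 34 genes of NMD and exon junction complex factors, edgeR called none and found 0 at an unadjusted p under 0.05, with log2 fold changes from -0.35 to 0.15. Over all 20315 genes it called none and found 252 under 0.05, so these counts do not set the list apart. Upf1, the central helicase, had 20.9, 33.9 and 33.1 TPM in WT and 23.5, 31.0 and 32.2 TPM in KO. Smg1, the kinase of UPF1, had 19.8, 45.4 and 45.9 TPM in WT and 27.5, 47.9 and 47.2 TPM in KO. In both genes the low values were those of the mice numbered 1. Of the listed genes 7 have a member of their own, and in the 6 tested the shares overlapped. Over all 3035 genes, the groups did not overlap in 10.1%. Smg6, the endonuclease of the pathway, had an NMD share of 27%, 15.9% and 18.4% in WT and 28.9%, 18.6% and 19.6% in KO, and Gspt2, a translation release factor, had 14.5%, 23.3% and 24.3% against 19.0%, 22.2% and 24.9%.

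Genes whose mRNA is known to be degraded by the pathway gave a further readout, mostly in genes without annotated NMD transcripts. Of 18 listed genes 14 were matched and tested, and edgeR called none, with 1 at an unadjusted p under 0.05, beside 252 of all 20315 genes. Their summed TPM was 1049, 1017 and 1020 in WT and 890, 922 and 948 in KO, lower in every KO mouse. Most of that sum is Oaz1, the antizyme of polyamine synthesis, with 739, 517 and 535 TPM in WT and 592, 544 and 528 TPM in KO, which overlapped. Atf4, a transcription factor of the integrated stress response, had 118.03, 129 and 130 TPM in WT and 117.96, 115 and 118 TPM in KO. Robo3, an axon guidance receptor with 1 NMD member (Robo3-205, in which a 405-base intron is kept), was the gene under 0.05, at 31.4, 37.3 and 38.1 TPM in WT and 28.4, 32.9 and 28.9 TPM in KO, and its NMD share overlapped, at 25.7% to 31.5% in WT and 28.2% to 32.3% in KO.

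For synaptic proteins, 24 of 90 genes have a member, and in the 21 tested the groups overlapped throughout. Over all 3035 genes, the groups did not overlap in 10.1%. The 21 genes had a median share of 8.09% and a median difference of -0.131 points. Gria2, a subunit of the AMPA receptor, had 14.3%, 14.2% and 14.3% in WT and 18%, 13.5% and 12.5% in KO through Gria2-203, which includes a 41-base exon. Dnm1 had 11.8%, 8.07% and 7.5% in WT and 11%, 8.93% and 10.6% in KO. The kainate receptor subunit Grik5 had 18.5%, 19.5% and 19.7% in WT and 17.9%, 19.9% and 17.5% in KO.

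Genes of cytosolic ribosomal proteins and translation factors contain several of the highest members, yet only 24 of 99 have a member and 15 were tested, with a median share of 12.8%. KO was above WT in 1 of them, Rps12, at 18.7%, 20.4% and 21.7% in WT and 21.8%, 22.4% and 22.4% in KO, and below in 0. This count is near the background of 6.0% and 4.09% of all tested genes. The summed TPM of the 99 genes was 101120 in WT1 and 78142 in KO1 against 45672 to 47923 in the other mice, and it was highest in the mice numbered 1. Rpl13a had 7.12%, 14.3% and 12.9% in WT and 15.1%, 14.5% and 12.9% in KO. Among the protein arginine methyltransferases, 7 of 9 genes have a member and the 5 tested overlapped, beside 10.1% of all 3035 genes that did not overlap. Prmt9 is among those tested, and its only member uses an acceptor in the exon deleted in KO. Prmt6 had the highest share, at 38.5%, 55.0% and 48.7% in WT and 30.6%, 46.3% and 40.1% in KO. Within mice of the same number, the differences were -7.87, -8.63 and -8.60 points. Paired by number, the unadjusted p was 0.00926 and the adjusted p 0.783 by limma, so the gene was not called. Without pairing, the unadjusted p was 0.189 by limma. The mouse numbers are not known to mark pairs, and these differences and the smaller p rest on them. Prmt5 had 9.99%, 14.9% and 12.7% in WT and 10.6%, 11.4% and 12.5% in KO.

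DESeq2, run as an alternative to edgeR on the same counts, called 7 members, or 0.136% of 5147, against 0.124% of all transcripts, and edgeR gave each of them an adjusted p of 1.0. By DESeq2, 5 were higher and 2 lower in KO. Hnrnpa2b1-207, an NMD transcript of an hnRNP gene with an intron after the usual stop codon, had 3.07, 4.07 and 3.47 TPM in WT and 1.3, 1.5 and 1.29 TPM in KO, a DESeq2 log2 fold change of -1.45 ± 0.20 (SE). As a share of Hnrnpa2b1, it held 0.815%, 0.663% and 0.585% in WT and 0.264%, 0.268% and 0.240% in KO, a minor product with every KO mouse below every WT mouse. These shares were under the 1% that the share test required. Golga1-210, from the gene of a Golgi tether, had 0.176, 0.159 and 0.267 TPM in WT and 0.931, 1.19 and 0.843 TPM in KO. Stoml1-206, which includes a 280-base exon at chr9:58255534-58255813, had 2.01, 3.73 and 3.06 TPM in WT and 5.26, 6.06 and 6.26 TPM in KO.

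Tnik-207, which includes a 104-base exon at chr3:28549541-28549644 in the gene of a kinase of the postsynaptic density, had 4.92, 7.71 and 6.73 TPM in WT and 9.46, 10.5 and 11.9 TPM in KO. The level of the whole gene was 72.5 ± 24.5 TPM in WT and 127 ± 25.3 TPM in KO (SD, n = 3 each), and the share overlapped at 7.71% to 11.1% in WT and 7.33% to 9.62% in KO. Fam53a-206, a transcript with a 159-base exon, had 0.423, 0.751 and 0.845 TPM in WT and 1.25, 1.42 and 1.5 TPM in KO. The other 2 were Ccdc150-203, at 0 in WT and 0.148, 0.0421 and 0.0802 TPM in KO, and Sim2-203, at 0 in KO and 0.0287, 0.0648 and 0.0433 TPM in WT, both in genes under 1 TPM.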

How the data were processed

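RNA-seq libraries of polyadenylated hippocampal RNA from 3 WT and 3 Prmt9 KO mice were used. Per the labels, kallisto 0.46.0 was among the tools, and the authors deposited, for each mouse, the estimated counts (expected counts) that kallisto assigned to each transcript and the TPM derived from them, and both were used as deposited. A deposited table of TPM per gene served as a check, and the transcript TPM summed per gene lay within 1% of it for 99.35% to 99.42% of genes with 1 TPM or more. Types and structures came from GENCODE M21, and 2161 transcripts without a match by identifier were left out of the shares. Counts were rounded and fitted with edgeR 4.0.16 (quasi-likelihood, TMM, filterByExpr). Shares were fitted with limma 3.58.1 (trended empirical Bayes) on log2((TPM + 0.1)/(TPM of the rest of the gene + 0.1)), for genes that reached 1 TPM in all 6 mice and whose mean share was 1 to 99%, so a fold change is understated at low levels. P-values were adjusted by Benjamini-Hochberg over all features of a fit. The study describes the mice as biological replicates with littermate controls, and which mice shared a litter is not given in the sources used here. DESeq2 1.42.0 was an alternative. The fits were also run on simulated data in which the mice numbered 1 did not stand apart. That run does not cover the spread seen here, and no result rests on it.

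The members, gene lists and tests were chosen with earlier results of these data known. Named genes were Prmt9, the 10 members with the highest TPM, the 4 tested genes with the highest NMD TPM of each list, the 10 genes with the smallest p among those with a difference of at least 5 points, genes examined by RT-PCR, and called members. Some items under this rule are not reported here. Srsf6, Srsf3, Srsf7, Tra2a, Clk1, Rps12, Upf1, Smg1, Sf3b2, Oaz1 and Atf4, and the genes that did not overlap in a list, were added after their values were seen.

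Mice of the same number deviated together from their group means over 15169 genes, with correlations of 0.776, 0.702 and 0.636 for numbers 1, 2 and 3, so the numbers were treated as pairs in an alternative fit. The crossed pairs WT2 with KO3 and WT3 with KO2 gave 0.638 and 0.686, so these correlations set the mice numbered 1 apart but do not distinguish numbers 2 and 3. Among single genes, differences within mice of the same number are shown only for Hnrnpa1 and Prmt6. They were computed for many more genes, and no stated rule picked Hnrnpa1 and Prmt6.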

Additional observations from a re-analysis of the deposited data

How the results depend on the processing

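The total NMD share was higher in KO under every alternative tried, by 0.0557 points with estimated counts, 0.106 points without the 10 highest members and between 0.0479 and 0.111 points when each mouse was left out in turn. With the replicate block, the mean of the differences between paired mice was 0.0842 points (0.206, 0.0187 and 0.0281 points for pairs 1, 2 and 3), and the block changed no call in any fit. The fits of transcript share and of NMD share per gene called no member under any alternative, and the fit of abundance called none except with DESeq2, which called 7. Genes with an unadjusted p under 0.05 in the NMD share per gene numbered 91, and from 49 (without KO3) to 175 (without WT1) when single mice were left out, 60 without KO1, 59 without KO2, 250 without both mice numbered 1, 218 with a term for them and 132 with the block. Members under 0.05 by abundance numbered 182 with the block against 107 without it. For Ufsp2, the adjusted p by limma ranged from 0.0556 to 1.0 over 14 alternatives. None of the 10 genes with the smallest p changed direction. In all 10 the groups were already separate by the choice described above. Leaving out mice, the block and the term for the mice numbered 1 therefore could not reverse the direction. Its constancy under those alternatives is not a test of these genes. With 3 mice per group, and more members at 0 in WT1 than elsewhere, low members cannot be compared closely. The uncertainty of dividing reads among transcripts of a gene was not modelled.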
